A study of Mus musculus with 6 samples.

Results

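The replication-dependent histone genes are the gene copies that code for the linker histone H1 and the core histones H2A, H2B, H3 and H4, named in mouse by their cluster (Hist1, Hist2, Hist3 or Hist4). They were taken as all genes whose symbol starts with a cluster name and that had 10 or more RNA-seq counts over both libraries, which 60 of 68 such symbols reached, among 17567 genes of the whole table that did. By class they were 6 H1, 16 H2A, 14 H2B, 11 H3 and 13 H4 genes, and by cluster 48 Hist1, 8 Hist2, 3 Hist3 genes and Hist4h4. The cells were microglia, the resident macrophages of the central nervous system, sorted on F4/80 and CD45. One group came from mice with EAE (experimental autoimmune encephalomyelitis, used to model multiple sclerosis) at its clinical peak, and the other from naive mice. All mice were Ccr2rfp/+::Cx3cr1gfp/+ on a C57Bl/6 background, so both groups carried 1 reporter copy in place of Ccr2 and 1 in place of Cx3cr1, a gene that microglia express strongly. EAE was induced at 24 to 28 weeks of age with MOG peptide 35-55, and the peak was the second day on which the clinical score, after worsening daily, no longer climbed. Cells were prepared from brains and spinal cords on a 30% and 70% Percoll gradient and pooled from 30 mice per condition. Each condition had 1 RNA-seq library, so ratios have no replicate check and no p-value. Each had 2 MiGS libraries, made from DNA fragments that a protein domain with affinity for methylated CpG sites pulled down.

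Replication-dependent histone genes supply the histones that package newly copied DNA, and their transcripts are abundant mainly in S phase of the cell cycle. The genes lie in clusters and as a rule have no intron. Their transcripts end in a stem-loop bound by the protein Slbp in place of a poly(A) tail, so that libraries made from total RNA, as here, capture them, while poly(A)-selected libraries largely do not. Microglia are long-lived and divide slowly in the healthy adult brain.

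Promoters of the family differ by class, as 6 examples show. Hist1h1b, Hist1h2bk and Hist1h3c had the highest peak over naive ratio of their class, Hist1h1c had the lowest of H1, and Hist1h4d and Hist1h4f were the H4 genes with the highest level and the highest ratio. Each is given as the 200 bases before the RefSeq start site (GRCm38.p6), 5′ to 3′ on the gene's strand. Capitals mark, on either strand, the octamer ATTTGCAT, the CCAAT box, the letters TATAA and, in H1 genes, the H1 box AAACACA, motifs known from histone gene promoters.
Hist1h1b promoter, chr13:21780626-21780825, minus strand: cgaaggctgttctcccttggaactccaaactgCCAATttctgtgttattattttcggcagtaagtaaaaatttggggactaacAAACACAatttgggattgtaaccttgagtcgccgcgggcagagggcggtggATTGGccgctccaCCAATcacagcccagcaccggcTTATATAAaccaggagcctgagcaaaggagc
Hist1h1c promoter, chr13:23738607-23738806, plus strand: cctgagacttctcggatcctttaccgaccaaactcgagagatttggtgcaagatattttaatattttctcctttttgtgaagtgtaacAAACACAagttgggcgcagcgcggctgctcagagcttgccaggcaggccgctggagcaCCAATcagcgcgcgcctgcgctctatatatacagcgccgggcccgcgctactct
Hist1h2bk promoter, chr13:22035621-22035820, plus strand: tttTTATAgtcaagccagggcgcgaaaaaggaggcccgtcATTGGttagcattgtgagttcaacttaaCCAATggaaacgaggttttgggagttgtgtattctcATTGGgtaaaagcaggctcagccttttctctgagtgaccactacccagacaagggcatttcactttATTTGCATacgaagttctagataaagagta
Hist1h3c promoter, chr13:23745522-23745721, minus strand: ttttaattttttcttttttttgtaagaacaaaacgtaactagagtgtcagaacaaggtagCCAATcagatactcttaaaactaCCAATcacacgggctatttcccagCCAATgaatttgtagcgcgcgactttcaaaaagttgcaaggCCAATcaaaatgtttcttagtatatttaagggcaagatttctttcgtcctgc
Hist1h4d promoter, chr13:23581368-23581567, plus strand: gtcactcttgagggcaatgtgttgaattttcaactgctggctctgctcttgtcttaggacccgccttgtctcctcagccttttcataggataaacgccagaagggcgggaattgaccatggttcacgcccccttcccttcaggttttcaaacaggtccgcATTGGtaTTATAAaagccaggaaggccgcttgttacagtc
Hist1h4f promoter, chr13:23551669-23551868, minus strand: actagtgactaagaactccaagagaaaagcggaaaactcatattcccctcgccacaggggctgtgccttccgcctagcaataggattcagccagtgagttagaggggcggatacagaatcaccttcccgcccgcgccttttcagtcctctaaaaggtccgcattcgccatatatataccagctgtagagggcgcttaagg
In the Hist1h4f window none of these letters occurs.

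Of the 60 members, 52 had a promoter entry of 300 bases (250 before to 50 after the start) among 27025 genes. CCAAT was found in 43 of the 52, or 82.7%, against 41.1% of all promoters. It was in every H1, H2A, H2B and H3 promoter searched and in 3 of 12 of H4. TATAA was found in 43 of 52 members against 28.0% of all promoters. The octamer was found in 11 members, 21.2% against 1.97% of all promoters, and all 11 were H2A (6 of 14) or H2B (5 of 11) genes. It read along the gene in all 5 H2B promoters and on the opposite strand in all 6 H2A promoters. The H1 box was found in 5 of 6 H1 promoters, all but Hist1h1a, starting between positions -112 and -122. The only other member with it was Hist1h2ab, and 8.22% of all promoters held it. Neighbouring H2A and H2B genes share promoter sequence, so a match can count for both, and a match is only a run of letters. Within H2A and H2B, 10 of 22 promoters of genes at least 2-fold higher at peak held the octamer, and 1 of 3 of those within 2-fold.

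Histone transcripts made up 0.213% of all counts in the peak library and 0.0768% in the naive library, as 77711 of 36561934 and 24027 of 31282093 counts. After TMM scaling, the sum was 2.99-fold higher at peak (95% exact interval 2.95 to 3.04, counting error only, as for all intervals here). At the level of single genes, 43 of 60 members were at least 2-fold higher, where 13.0% of all 17567 genes were, and 2 were at least 2-fold lower, where 11.8% of all genes were. The other 15 lay within 2-fold. The whole interval lay above 2-fold for 40 members, against 8.35% of all genes. At least 8-fold higher were 19 members, against 3.19% of all genes. The median log2 ratio was 2.13 over the members and -0.003 over all genes. Close paralogs share sequence, so reads may be split among copies, and single-gene values are less certain than class sums. Reads that match several copies may also have been left out, which would affect class sums too, and this was not tested. In bulk libraries, more cells with a transcript and more transcript per cell cannot be told apart.

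**Figure D1:**
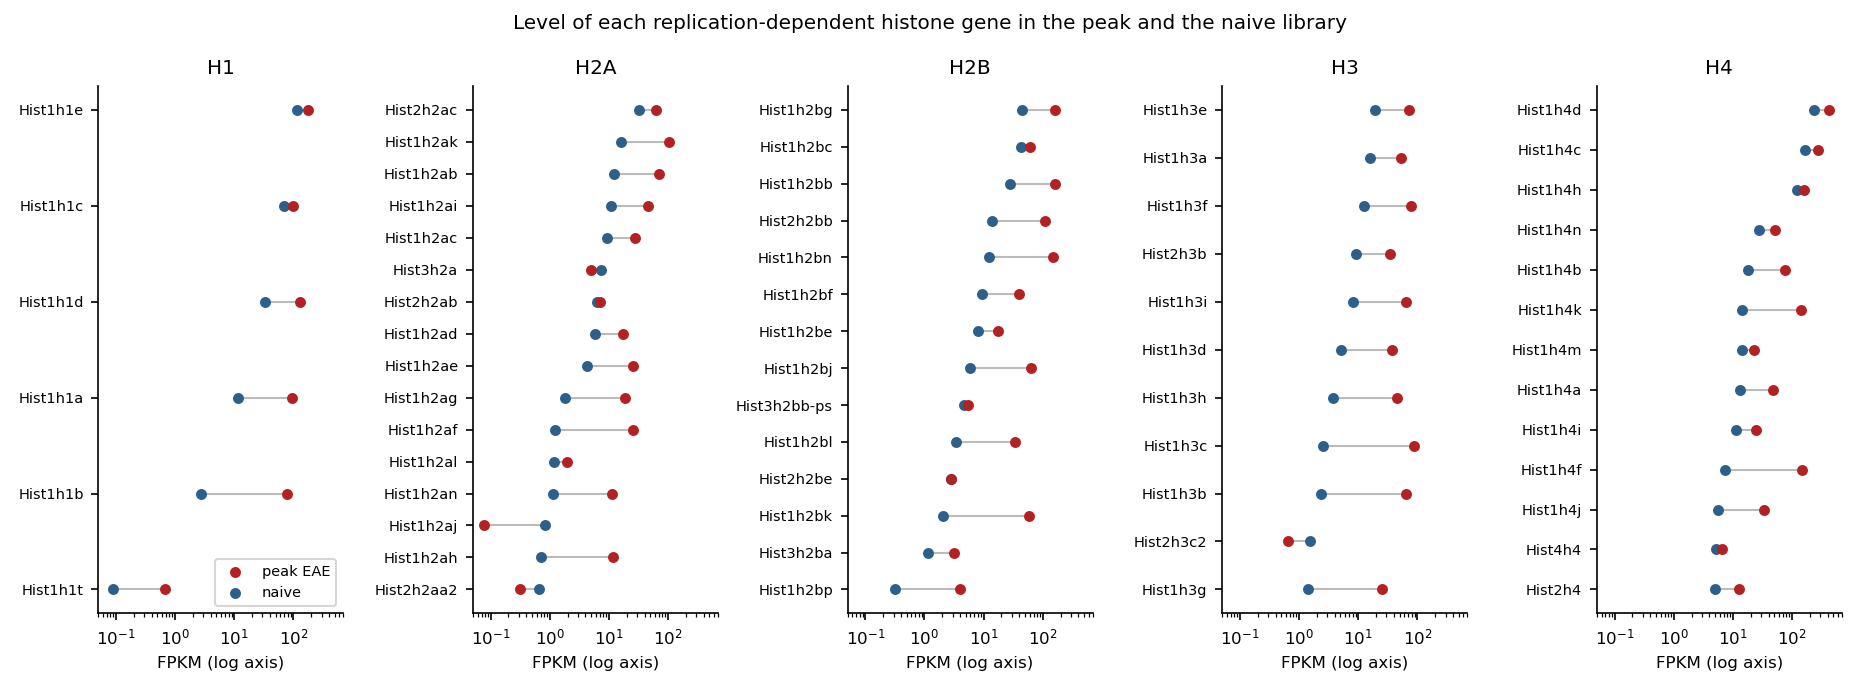
Level of each of the 60 histone genes in FPKM on a log axis, by class, in the peak (red) and the naive (blue) library, with genes ordered by their naive level and 1 library per condition. The median gene stood at 45.4 FPKM at peak and 7.65 FPKM in naive cells, and the 11 genes at or above 20 FPKM in naive cells had a median log2 ratio of 0.93.

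Per length, levels ran between 0.0777 and 423 FPKM at peak and between 0.0877 and 240 FPKM in naive cells, with 48 members at or above 10 FPKM at peak and 25 in naive cells. FPKM are relative to library totals, while all ratios come from TMM-scaled counts. The FPKM values beside a ratio therefore do not divide to it, and give a somewhat smaller one. The median log2 ratio was 3.42 over the 21 members under 5 FPKM in naive cells, 2.17 over the 28 between 5 and 20 FPKM, and 0.93 over the 11 at or above 20 FPKM. The share of members at least 2-fold higher did not follow that order, with 15 of 21, 24 of 28 and 4 of 11, and both lower members were in the lowest band. Long gene models lower the FPKM of some members and can move them to a lower band. Examples are Hist4h4 (2863 bp), Hist2h2be (2620 bp) and Hist3h2a (2146 bp). Each library's level also enters the ratio. Over the 60 genes, which share the libraries, the log2 ratio had a Spearman rho of -0.28 with the naive level, 0.30 with the peak level and 0.005 with the mean of both.

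Linker histones, which bind DNA where it enters and leaves the nucleosome, differed widely in ratio. Hist1h1b had 2078 counts at peak and 64 in naive cells, 29.8-fold higher (23.4 to 39.2). Hist1h1a had 2206 and 232 counts, 8.78-fold higher (7.68 to 10.1), and Hist1h1d 3518 and 765 counts, 4.25-fold higher (3.93 to 4.61). In that order, these 3 genes held 0.890%, 3.23% and 10.6% of H1 counts in the naive library. Hist1h1e had 4763 counts at peak and 2690 in naive cells, 1.64-fold higher (1.56 to 1.72), and Hist1h1c 5561 and 3439, with a log2 ratio of 0.58 (1.43-fold to 1.56-fold). Both were the largest parts of H1 in each library. Hist1h1t, the linker histone of the testis, had 18 counts at peak and 2 in naive cells, with an interval of 1.99-fold to 74.0-fold. As a class, H1 was 2.33-fold higher (2.27 to 2.40).

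Of 16 H2A genes, 11 were at least 2-fold higher, 1 was at least 2-fold lower and 4 were within 2-fold. H2A and H2B form the dimers at the outer faces of the nucleosome core. Hist1h2af had 372 counts at peak and 15 in naive cells, 22.2-fold higher (13.7 to 41.4). Hist1h2ah had 172 and 9 counts (16.8-fold) and Hist1h2ag 330 and 27 (11.1-fold). The most abundant H2A gene of Hist1 at peak, Hist1h2ak, stood at 103 FPKM against 16.1 FPKM in naive cells, 6.90-fold higher, and Hist1h2ab at 71.0 against 12.3 FPKM, 6.23-fold higher.

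The 4 H2A genes outside Hist1 had ratios of 2.04 or less. Hist2h2ac, with the highest naive H2A level, stood at 61.4 FPKM at peak and 32.5 FPKM in naive cells, 2.04-fold higher (1.84 to 2.27). Hist2h2ab had 116 counts at peak and 86 in naive cells, with an interval of 0.936-fold to 1.67-fold. Hist3h2a was lower at peak, with 392 against 485 counts, a ratio of 0.748 (0.653 to 0.856). Hist2h2aa2 had 6 and 11 counts, a ratio of 0.523 with an interval of 0.153 to 1.49. Hist2h2aa1, an H2A gene of the same cluster with too few counts to be a member, had 0 and 1. How reads that match both were assigned was not tested. Of the H2A members 2 are annotated as pseudogenes, Hist1h2aj, with 1 count at peak and 9 in naive cells, and Hist1h2al, with 27 and 14. Hist1h2aj is the H2A gene called lower, on 10 counts in all. The class sum was 3.39-fold higher (3.23 to 3.57).

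Of 14 H2B genes, 11 were at least 2-fold higher and 3 within 2-fold. Hist1h2bk had 1006 counts at peak and 31 in naive cells, 29.6-fold higher (21.0 to 44.4). Hist1h2bn had 2093 and 149 counts, 13.0-fold higher, and Hist1h2bp 104 and 7, 12.9-fold higher. In level, Hist1h2bg (163 FPKM at peak, 44.0 in naive cells) and Hist1h2bb (162 and 27.8) led at peak. Hist1h2bc stood at 61.1 FPKM at peak and 42.9 FPKM in naive cells, 1.54-fold higher (1.42 to 1.67). Hist1h2be had the most H2B counts, 2847 at peak and 1086 in naive cells, but a long gene model of 4374 bp puts it at 17.8 and 7.94 FPKM.

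The 4 H2B genes outside Hist1 spread widely. Hist2h2bb had 1542 counts at peak and 168 in naive cells, 8.47-fold higher. Hist2h2be had 265 and 234, a ratio of 1.05 (0.876 to 1.25), and its log2 ratio of 0.07 changed sign to -0.05 with library totals and -0.09 with upper quartile scaling. Hist3h2ba had 70 counts at peak and 22 in naive cells, 2.90-fold higher (1.80 to 4.99), and the pseudogene Hist3h2bb-ps 94 and 68 (0.926 to 1.77). Its interval includes equal levels. The H2B sum was 3.97-fold higher (3.83 to 4.10).

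H3, which with H4 forms the tetramer at the centre of the nucleosome, had the largest class ratio, 6.88-fold (6.53 to 7.25), and the highest class median, a log2 ratio of 2.94. Of its 11 genes, 10 were at least 2-fold higher and none was within 2-fold. Hist1h3c had 1573 counts at peak and 39 in naive cells, 36.9-fold higher (27.2 to 52.7), the highest ratio of all 60 members. Hist1h3b had 1481 and 45 counts, 30.1-fold higher, and Hist1h3g 396 and 19, 18.8-fold higher. The lowest ratio in Hist1 was that of Hist1h3a, 52.8 FPKM at peak and 15.9 FPKM in naive cells, 3.58-fold higher (3.13 to 4.12). Hist1h3e and Hist1h3f, with naive levels of 18.9 and 12.7 FPKM, reached 71.9 and 78.2 FPKM at peak.

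Both Hist2 members of H3 differed from each other. Hist2h3b had 610 counts at peak and 141 in naive cells, 3.99-fold higher (3.33 to 4.84). Hist2h3c2 had 24 and 49 counts, a ratio of 0.458 (0.266 to 0.753), and was the only protein-coding member at least 2-fold lower with TMM scaling. Its close copy Hist2h3c1 had 0 counts in both libraries, and how reads of the copies were assigned was not tested. The H3 genes code for the proteins H3.1 (Hist1h3a, Hist1h3g, Hist1h3h and Hist1h3i, by RefSeq synonyms) and H3.2 (the other 7). The sums were 6.49-fold higher (5.87 to 7.19) for H3.1 and 7.02-fold higher (6.61 to 7.47) for H3.2, with overlapping intervals.

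H4 had the highest levels and the smallest class ratio, 2.30-fold (2.24 to 2.35), an interval that overlaps that of H1, with 7 of 13 genes at least 2-fold higher and 6 within 2-fold. Hist1h4f had 2089 counts at peak and 90 in naive cells, 21.4-fold higher (17.4 to 26.8). Hist1h4k had 1628 and 141 counts, 10.6-fold higher, and Hist1h4j 946 and 135, 6.46-fold higher. The most abundant H4 genes moved less. Hist1h4d stood at 423 FPKM at peak and 240 FPKM in naive cells, 1.91-fold higher (1.83 to 1.998), Hist1h4c at 270 and 166 FPKM, 1.76-fold higher (1.67 to 1.86), and Hist1h4h at 161 and 122 FPKM, 1.43-fold higher (1.35 to 1.52). Hist1h4n lay at the 2-fold line with 803 and 373 counts, 1.99-fold. Hist2h4 had 767 and 257 counts, 2.76-fold higher (2.39 to 3.19). Hist4h4, the only member on its chromosome, had 683 and 469, 1.35-fold higher (1.20 to 1.52).

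**Figure D2:**
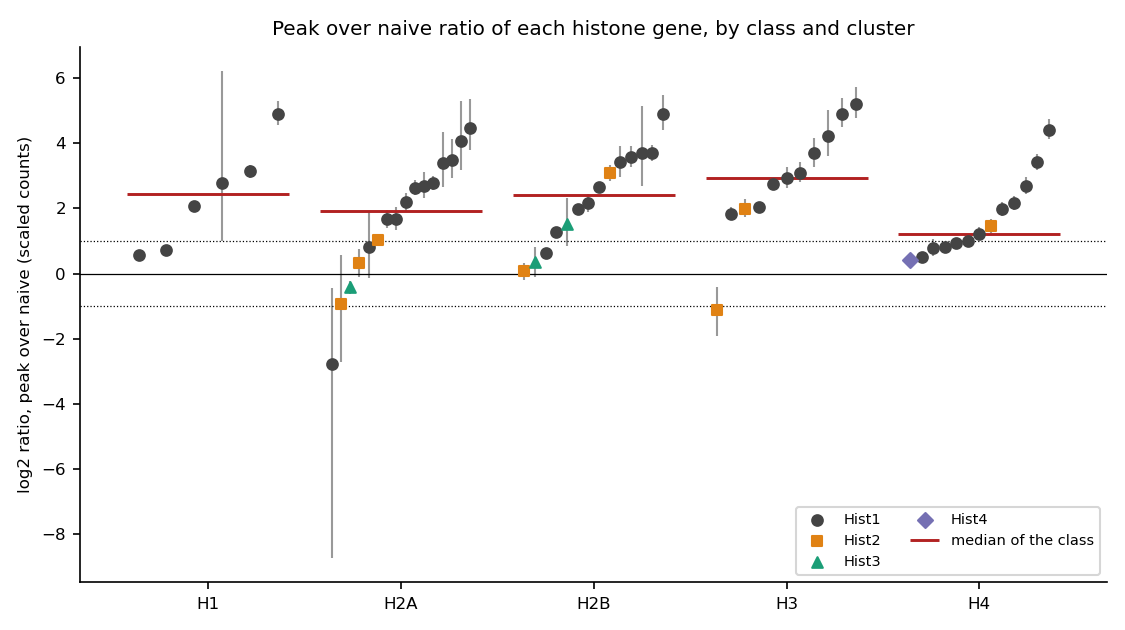
Log2 ratio, peak over naive, of each histone gene by class, with exact 95% intervals that cover counting error only, symbols by cluster, the class median as a red line and dotted lines at 2-fold. H3 has the highest median (2.94) and H4 the lowest (1.23), and most genes of Hist2, Hist3 and Hist4 sit in the lower part of their class.

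By cluster, 38 of 48 Hist1 genes were at least 2-fold higher and the sum was 3.097-fold higher (3.05 to 3.14). In Hist2, 4 of 8 were higher and 1 lower, with a sum 2.82-fold higher (2.66 to 2.99). The 3 Hist3 genes summed to 556 counts at peak and 575 in naive cells, a ratio of 0.895 (0.795 to 1.01). Hist1 itself (mm10) divides into stretches more than 100 kb apart. The 14 members at chr13:21715711-21832197 were 7.19-fold higher in sum (6.83 to 7.58), with 11 at least 2-fold higher and Hist1h2aj lower. The 5 at chr13:22035122-22043658 were 7.34-fold higher (6.62 to 8.15), all at least 2-fold. The 28 at chr13:23531044-23764412 were 2.67-fold higher (2.63 to 2.72), with 22 at least 2-fold. This last stretch holds Hist1h1c, Hist1h1e, Hist1h4c, Hist1h4d and Hist1h4h, the 5 members with the highest naive levels. Median log2 ratios, which count each gene once, were 3.24, 3.58 and 2.13 in the 3 stretches.

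The makeup of each class was more even at peak. The 3 leading H1 genes held 76.3% of H1 counts at peak and 95.9% in naive cells. Hist1h1b held 11.5% at peak and 0.890% in naive cells, while Hist1h1c held 30.6% and 47.8%. The 3 leading genes of each library held 53.0% at peak and 60.7% in naive cells for H2A, 48.1% and 67.2% for H2B, 51.1% and 67.2% for H3, and 56.2% and 74.3% for H4. In H3, Hist1h3c and Hist1h3b held larger shares at peak, 13.0% and 12.2%, against 2.39% and 2.76% in naive cells. In H2A, Hist3h2a held 5.36% at peak and 24.3% in naive cells.

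**Figure D3:**
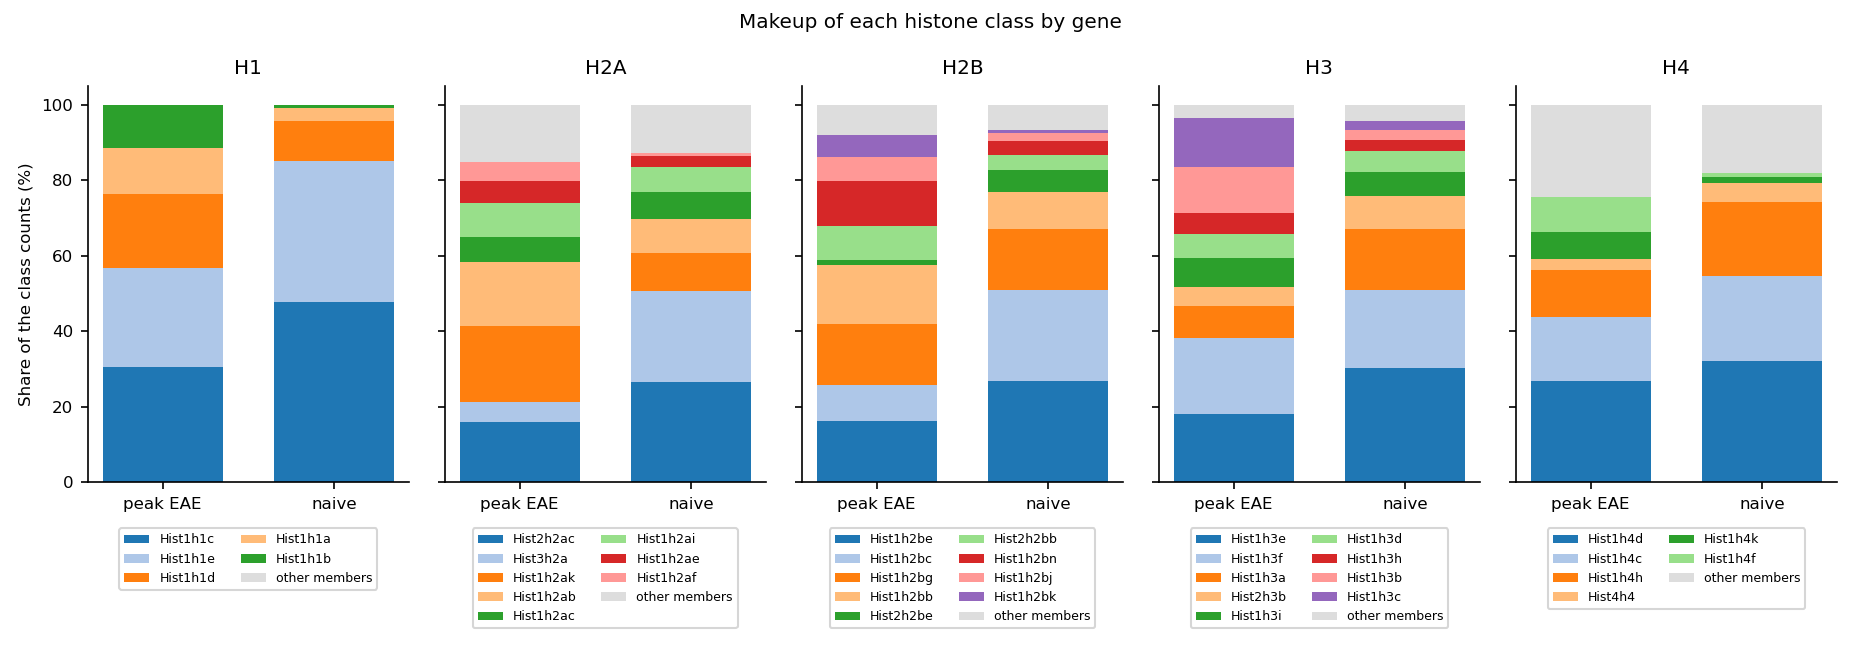
Share of each class's counts, in percent, held by each gene in the peak (left bar) and the naive library (right bar), with members under 5% in both libraries joined as other members. The 3 leading H1 genes hold 76.3% at peak and 95.9% in naive cells, and the leading genes of the other classes likewise hold less at peak.

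In amount, the 43 members at least 2-fold higher held 80.06% of the net gain in scaled counts and the 15 within 2-fold 20.01%. Per length, the largest gain was that of Hist1h4d, 423 against 240 FPKM, though its ratio was under 2-fold. Hist1h4f followed with 146 FPKM at peak and 7.36 in naive cells, and Hist1h2bn with 150 and 12.5. By class, H4 took 29.5% of the gain in FPKM, H2B 26.7%, H3 18.4%, H1 13.0% and H2A 12.3%. Scaled counts weigh long transcripts more and follow TMM, not the library totals behind FPKM. In them, H2B took 25.2%, H4 24.8%, H1 20.04%, H3 20.02% and H2A 9.97%.

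H2A and H2B genes often lie head to head over a shared promoter. Among members with a promoter entry for both genes, which gives their strand, there were 7 such pairs with starts 164 to 249 bp apart, all in Hist1. Both genes were at least 2-fold higher in each of the 7, but so were 10 of 12 H2A and 9 of 10 H2B genes of Hist1. Within pairs, log2 ratios differed by a median of 0.69, with the H2B gene above in 6 pairs. The other neighbours within 1000 bp, whose H2B genes have no entry, did not have both genes higher. All of these but Hist1h2ac and Hist1h2bc lie outside Hist1. Hist1h2ac was 3.19-fold and its neighbour Hist1h2bc 1.54-fold higher. Hist2h2ac was 2.04-fold higher beside Hist2h2be at 1.05-fold, which also lies near Hist2h2ab at 1.25-fold. Hist3h2a and Hist3h2bb-ps, with log2 ratios of -0.42 and 0.35, were both within 2-fold. In the pair around the Hist1h2bk sequence given above, Hist1h2ah had a log2 ratio of 4.07 and Hist1h2bk 4.89. The widest gap was between Hist1h2bl (3.42) and Hist1h2ai (2.19). In the 1 pair with H2A above, Hist1h2ae (2.69) and Hist1h2bg (1.997), Hist1h2bg had the higher level.

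The replication-independent variants, expressed outside S phase too, had 5 of 10 genes at least 2-fold higher and none lower, with a median log2 ratio of 0.95. Cenpa, the H3 variant of centromeres, had 1216 counts at peak and 120 in naive cells, 9.34-fold higher (7.77 to 11.4). H2afx, whose transcript can end in a stem-loop or a poly(A) tail, had 1181 and 169 (6.45-fold), and H2afz 914 and 360 (2.35-fold). H3f3a and H3f3b, which code for H3.3, were 1.76-fold and 1.54-fold higher, while replication-dependent H3 was 6.88-fold higher.

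Genes for the transcription and 3′ end processing of histone transcripts had 2 of 21 at least 2-fold higher and none lower, with a median log2 ratio of 0.29. Slbp, which binds the stem-loop, had 2034 counts at peak and 1538 in naive cells, 1.22-fold higher, and Npat, the coactivator of histone genes in S phase, 1589 and 1559. The largest ratios were those of Zfp473 (58 and 22 counts, 2.41-fold), a part of the processing complex, and the Sm proteins Snrpf (121 and 51, 2.18-fold) and Snrpg (258 and 130, 1.83-fold). Histone chaperones had 8 of 20 higher and none lower. Chaf1a and Chaf1b, subunits of the factor that deposits H3 and H4 on new DNA, had 781 and 432 counts at peak against 22 and 31 in naive cells, 32.1-fold and 12.7-fold higher. Asf1b, which hands H3 and H4 to it, had 632 and 77 counts, 7.55-fold higher.

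DNA replication genes had 32 of 43 at least 2-fold higher and none lower, with a median log2 ratio of 1.74. Rrm2, a subunit of ribonucleotide reductase, had 1220 counts at peak and 29 in naive cells, 38.3-fold higher, Mcm10, a replication initiation factor, 794 and 19 (37.7-fold), and Orc1, of the origin recognition complex, 98 and 2. Mitosis genes had 28 of 30 higher, with a median of 4.51. The kinase genes Bub1 (1181 and 21 counts) and Aurkb (939 and 19), and Ube2c (667 and 13), an enzyme of the anaphase-promoting pathway, led at 50.9-fold, 44.6-fold and 45.8-fold. The histone median of 2.13 lay between these lists.

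**Figure D4:**
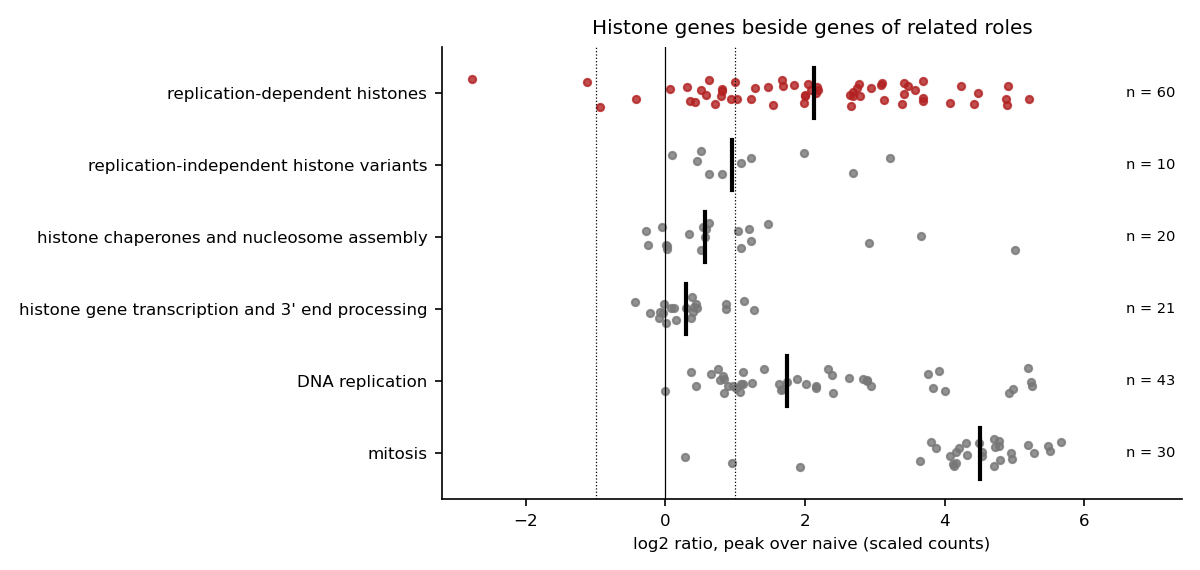
Log2 ratio, peak over naive, of the histone genes (red) and of genes in related roles (grey), each point a gene with 10 or more counts, with the median of each list as a black bar and dotted lines at 2-fold. The histone genes (median 2.13) lie between DNA replication (1.74) and mitosis (4.51), and genes for histone transcription and 3′ end processing sit near 0 (0.29).

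Other genes among the Hist1 members, within chr13:21715711-23764412, did not share the direction. This span leaves out the distant Hist1h2al. Of 92 such genes in the table, 6 reached 10 counts, and none was at least 2-fold higher and 1 was lower, with a median log2 ratio of -0.57. Hfe, which regulates iron balance, had 3521 counts at peak and 5353 in naive cells, a ratio of 0.609, Zfp184 111 and 232, and Gm11335 23 and 30. For Gm11335 the interval of 0.393 to 1.26 includes equal levels.

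Markers of other cells moved too. Of 10 monocyte markers, 8 were at least 2-fold higher, and they summed to 1141 CPM (TMM-scaled counts relative to library size) at peak and 64.5 CPM in naive cells. Fn1, fibronectin, made up most of this, and the other 9 summed to 122 CPM at peak and 39.4 CPM in naive cells, with none of the 10 at 0 in either library. Ccr2 and Itga4 held the most counts of these 9 and were 1.81-fold and 1.72-fold higher. Far larger ratios came from Ly6c2, with 338 counts at peak and 5 in naive cells, and F10, with 388 and 1. Of 9 microglia markers tested none was higher and 2, P2ry12 and Fcrls, were at least 2-fold lower, with sums of 27914 and 41204 CPM. Microglia markers were thus the most abundant of the marker lists in both libraries. Of 7 T cell markers tested 6 were higher, with sums over the 10 listed of 11.7 and 4.15 CPM and 5 of the 10 at 0 in naive cells. The summed levels of B cell, erythroid, astrocyte, endothelial and oligodendrocyte lineage markers were lower at peak, and those of neutrophil (23.2 and 21.1 CPM) and neuron markers (7.85 and 8.73 CPM) nearly level. Single markers still moved: of 8 neutrophil markers tested 2 were at least 2-fold higher and 2 lower. Among 8 astrocyte markers 5 were at least 2-fold lower, but 1, Gfap, was 2.67-fold higher (2.10 to 3.45). Of 6 neuron markers 1 was higher and none lower. The part of such cells in the histone ratios was not tested.

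In the MiGS data, most histone genes held no captured methylated DNA in either condition. Gene regions ran from 1000 bp outside to 500 bp inside both ends of a gene, which gave 2360 to 3000 bp for the members. The regions of 43 of 60 members, 71.7%, had 0 reads in all 4 libraries, against 35.4% of the other 46982 genes. Among 3900 other genes whose promoter had a like number of CpG sites (median 11, as in the members), 22.0% had 0 reads. Of the 52 members with a promoter entry, 38, or 73.1%, had 0 reads in all 4 libraries. CpG sites were matched in the promoter only, not over the gene region. In longer genes that region also takes in a distant 3′ end, so its length and sequence were not matched to the members. Reads of near-identical copies may map to no single gene, and the sources used here do not give how these were handled, so its part in the zeros was not tested. A region without reads also does not measure unmethylated DNA. Regions of neighbouring members overlap, so they can share reads or zeros and are not separate counts. Of the 17 members with reads, 6 had them only in naive replicate 2.

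**Figure D5:**
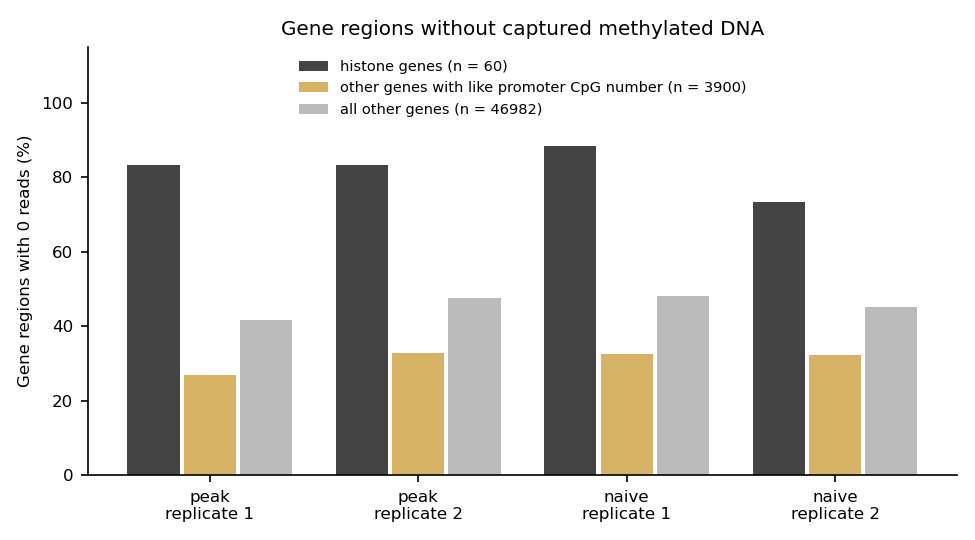
Percent of gene regions with 0 MiGS reads in each library, for the 60 histone genes, for other genes with a like number of promoter CpG sites and for all other genes. The histone genes stand highest in each of the 4 libraries, at 83.3% in both peak libraries and 88.3% and 73.3% in the naive libraries.

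Of the members, 9 had the 20 reads over the 4 libraries needed for a test. These are not 9 separate regions: those of Hist1h2ad and Hist1h2bf overlap, as do those of Hist3h2a and Hist3h2bb-ps. No region was called higher (0% of 24103 tested) or lower (0%) at peak by limma with Benjamini-Hochberg adjustment. An unadjusted limma p under 0.05 was reached by 1188 of the 24103 regions and by none of the 9 members. So few members cannot show a difference from that share. Testis-specific Hist1h1t had 19.4 and 24.5 per kb at peak and 11.2 and 9.34 per kb in naive cells. Both peak values lay above both naive values, and how many of all tested regions separate in this way was not counted. The log2 difference of Hist1h1t, named for its small p, was 1.02 (SE 0.61, limma adjusted p = 0.898). The pseudogene Hist1h2al, far from the other Hist1 genes, had 2.48 and 2.99 per kb at peak and 9.08 and 12.8 per kb in naive cells, a log2 difference of -1.66 (SE 0.93, limma adjusted p = 0.898). Hist2h2aa2 had 16.6 and 5.66 per kb at peak and 8.31 and 3.58 in naive cells, with overlapping groups (0.73, SE 0.84, limma adjusted p = 0.901). Hist1h2bf had 0.338 and 1.001 per kb at peak and 0 and 11.9 in naive cells (-1.13, SE 1.42, limma adjusted p = 0.907), a difference that rests on naive replicate 2. Hist3h2ba had 22.2 and 15.3 per kb at peak and 19.8 and 8.96 per kb in naive cells, again overlapping.

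Of the 8 symbols outside the 60, 6 had 0 counts in both RNA libraries, among them Hist1h2aa and Hist1h2ba, the testis-specific H2A and H2B genes. Their regions at the edge of Hist1 had more captured DNA than any member in each library. The 2 regions overlap by 1720 bp, so their values share most reads. Hist1h2aa had 136 and 288 per kb at peak and 255 and 657 per kb in naive cells, and Hist1h2ba 164 and 353 at peak and 315 and 850 in naive cells. The replicates overlap between conditions in both. Hist1h2ap had 3 counts at peak and 0 in naive cells, and Hist2h2aa1 0 and 1.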

How the data were processed

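RNA-seq was 1 library per condition and MiGS 2, with groups taken from the titles. The deposited RNA table holds raw counts per Ensembl gene and the authors' FPKM, per the file headers; each deposited MiGS file lists windows of 50 bp with a signal. The submitters' processing notes name mm10 and the tools TopHat, Bowtie2, edgeR and featureCounts, with neither roles nor versions; whether counting used the strand of the stranded kit is likewise not given in the sources used here. Totals were 36561934 peak and 31282093 naive counts; 506 of 42303 rows had no symbol. Symbols came from an Ensembl name table, and all 60 members matched RefSeq by synonym. X and Y were not analysed here.

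Counts were scaled by TMM (edgeR 4.0.16), with 0.5 added on the log2 scale; a call is a 2-fold ratio. No test was possible with a single library per condition; ratio intervals are exact (Clopper-Pearson, 95%) and cover counting error only. FPKM, the authors' values on library totals without TMM, were used for levels only. MiGS signal was whole reads divided by a factor per library (100% whole within 0.001; 30424742 to 43970332 reads, each fragment counted in several windows). The count test planned for MiGS was therefore replaced by limma 3.58.1 on log2(signal per kb + 1), with regions of at least 20 reads and a threshold of 0.05; fold changes on that scale understate low regions. Nothing says that the MiGS libraries are separate pools, so p-values measure spread that may be technical. The edgeR quasi-likelihood test and DESeq2 1.42.0 on recovered reads were alternatives. Both steps were run on simulated data, with counting error only for RNA and with spread set low for MiGS. These runs therefore do not show what the MiGS test can detect at the spread of these libraries.

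Named genes were all H1 and all Hist2, Hist3 and Hist4 genes, the 3 highest and 2 lowest ratios (50 or more counts) and 3 highest naive FPKM per core class, every ratio under 1, the 3 largest changes per list, and the smallest 2 MiGS p-values in each direction; other genes named were chosen after their values were seen. The members and lists were chosen with earlier results of these data known.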

Additional observations from a re-analysis of the deposited data

How the results depend on the processing

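The count of members at least 2-fold higher stayed within 1.5 times of 43 under every alternative run. The 2 lower members became 1 with a minimum of 50 counts or without the 3 pseudogenes and 0 when the whole interval had to pass. Over all genes, the median log2 ratio shifted against TMM by -0.11 (library totals), 0.01 (DESeq2 size factors) and -0.16 (upper quartile scaling), and the members' median became 1.96 with upper quartile scaling. Sums, as log2 ratios with library totals and upper quartile scaling, became 1.47 and 1.42 for all members, 1.11 and 1.06 for H1, 1.65 and 1.60 for H2A, 1.87 and 1.83 for H2B, 2.67 and 2.62 for H3, 1.09 and 1.04 for H4, 1.52 and 1.47 for Hist1, and 1.38 and 1.34 for Hist2. Without the member with the most counts in each class they became 1.81 for all, 1.63 for H1, 1.96 for H2A, 2.18 for H2B and 1.31 for H4. As sums of FPKM, chosen after seeing the data like the omission of pseudogenes, they became 1.30 for H1, 1.95 for H2A, 2.29 for H2B and 1.13 for H4. Hist1h4n passed 2-fold with DESeq2 size factors (1.001), while with library totals and upper quartile scaling Hist2h2ac no longer did (0.92 and 0.87) and Hist2h2aa2 became 2-fold lower (-1.05 and -1.10).

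MiGS replicates share only a number of unknown meaning, and with 2 pairs the correlation of replicate differences was 0.240. With the replicate block, limma called 140 of 24103 regions higher and 1236 lower. The edgeR fit with the block, added after seeing the data, called 49 and 754. None of these was a histone gene, but only 9 members were tested with the block. Without it, edgeR and DESeq2 called 0 regions, with 928 and 1018 at an unadjusted p under 0.05, and leaving out each replicate gave 0 calls.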
